A study of Mus musculus with 16 samples.

Results

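Solute carrier (SLC) transporters were examined in T-ALL lines of the mouse, cultured from T-cell acute lymphoblastic leukaemias, and in their drug-resistant derivatives. The members are the protein-coding genes whose symbol is Slc followed by a digit. They number 193 of the 13474 genes in the deposited table; 3 of the 196 such rows, Slc29a1, Slc19a1 and Slc25a40, were set aside and are not described. Of the 193, 189 are carriers. The other 4 (Slc4a1ap, Slc7a6os, Slc9a3r1 and Slc9a3r2) bear an SLC symbol because they bind to or neighbour a carrier. All 16 libraries were used, 1 per culture, and each resistant derivative was set beside the parental library of its own line.

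The 11 derivatives were resistant to cytarabine (lines 7298, 2883 and 2869), vincristine (2883, 2696 and 2869), etoposide (2883 and 2696), prednisone (2883 and 2641) or methotrexate (2883). The 5 parental cultures are labelled as treated with PBS. Lines 2883, 2696, 2641 and 2869 carry Mcm2cre/cre, a Cre cassette inserted at Mcm2 that reduces this subunit of the replicative helicase, in parental and resistant cultures alike, and line 7298 is SCL/LMO1 transgenic. The labels give thymus as the source of every line, and all were grown in DMEM with serum. Neither mouse age nor drug dose is stated in the labels. A line has 1 parental library, so the 5 derivatives of 2883 share 1 parental value, as do the 2 derivatives each of 2696 and 2869.

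SLC carriers move small molecules across the plasma membrane and the membranes of organelles without hydrolysing ATP, either down a gradient or coupled to sodium, protons or a counter-solute. Dividing lymphoid cells depend on them for glucose (Slc2 family), lactate release (Slc16 family), amino acids (Slc1, Slc7, Slc38 and Slc43 families), metals (Slc11, Slc30, Slc39 and Slc40 families) and exchange between cytosol and mitochondria (Slc25 family). Several also carry nucleosides, folates or the drugs that resemble them. In bulk RNA, fewer cells of a type and less RNA per cell cannot be told apart.

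Levels are given as CPM, a gene's reads per 1000000 reads of its library. Depth was 14066000 to 18956000 reads in the resistant libraries and 12142000 to 13498000 in the parental ones, so depth separates these groups and its part in the results below was not tested. Members together took 0.964% to 1.21% of reads in the resistant libraries and 0.980% to 1.16% in the parental ones. Of the T cell markers 12 of 12 are in the table, with summed levels of 3401 to 6122 CPM in resistant and 3296 to 6623 CPM in parental libraries. Rag1 took much of the sum, at 529 to 2617 CPM and 379 to 3492 CPM. Cd3d, Cd3e, Cd3g, Cd247, Lck and Thy1 fit the label, at 85.7 CPM or more in every library. Cd4 and Cd5 were near 0 in some libraries, at 0.00565 to 93.4 CPM and 0.0771 to 29.2 CPM in resistant ones. In parental libraries they were at 0.00793 to 8.74 CPM and 0.230 to 40.2 CPM. Of the B cell markers 1 of 5 is in the table (Cd79b, at 0.00528 to 13.2 CPM in resistant and 0.00752 to 2.53 CPM in parental libraries) and of the myeloid markers 1 of 6 (Itgam, 2.74 to 22.7 CPM and 6.93 to 33.1 CPM). None of 6 erythroid or 5 thymic epithelial markers is in the table. Of 5 fibroblast markers 1 is (Pdgfrb), at 0.122 to 433 CPM in resistant and 0.721 to 300.4 CPM in parental libraries; its part in the results was not tested.

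Promoter stretches are shown for the glucose carrier Slc2a1, the lactate exporter Slc16a3, its relative Slc16a1 and the cystine carrier Slc7a11. Textbooks link the hypoxia response element core to Slc2a1 and Slc16a3, and the amino acid response element to Slc7a11. Slc16a1 was searched for the same core as Slc16a3, and below it passed 2-fold in 0 pairs. Slc2a3, which passed 2-fold in 7 pairs, is not shown. Each stretch runs from 250 to 9 bases upstream of the RefSeq start (GRCm38.p6), 5′ to 3′ on the gene's strand, and capitals mark the motif on either strand.
Slc2a1, chr4:119108495-119108736, plus strand: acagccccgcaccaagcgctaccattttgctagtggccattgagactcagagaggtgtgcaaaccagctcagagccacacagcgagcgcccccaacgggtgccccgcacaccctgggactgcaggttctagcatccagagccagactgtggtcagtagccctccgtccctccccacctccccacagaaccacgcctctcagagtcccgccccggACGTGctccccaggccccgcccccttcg
Slc16a3, chr11:120948817-120949058, plus strand: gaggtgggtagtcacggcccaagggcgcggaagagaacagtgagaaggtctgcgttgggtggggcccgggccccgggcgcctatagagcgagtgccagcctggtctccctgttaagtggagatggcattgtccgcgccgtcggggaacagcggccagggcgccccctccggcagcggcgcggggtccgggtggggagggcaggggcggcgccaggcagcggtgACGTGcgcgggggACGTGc
Slc16a1, chr3:104638414-104638655, plus strand: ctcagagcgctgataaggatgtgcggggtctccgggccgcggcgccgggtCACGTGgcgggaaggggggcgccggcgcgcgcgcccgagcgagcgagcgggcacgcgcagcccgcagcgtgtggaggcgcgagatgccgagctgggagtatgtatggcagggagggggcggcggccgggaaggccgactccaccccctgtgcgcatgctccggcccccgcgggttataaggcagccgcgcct
Slc7a11, chr3:50443622-50443863, minus strand: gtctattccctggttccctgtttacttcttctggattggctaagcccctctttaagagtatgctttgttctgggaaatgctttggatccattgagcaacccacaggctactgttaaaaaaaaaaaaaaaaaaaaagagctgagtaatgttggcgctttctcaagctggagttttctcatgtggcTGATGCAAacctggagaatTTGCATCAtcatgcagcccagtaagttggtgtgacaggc
The core ACGTG lay 36 bases upstream of the start in Slc2a1 and 27 and 14 bases upstream in Slc16a3. Slc16a1 holds it once, 200 bases upstream, in a palindrome that reads the same on both strands. TGATGNAA, where N is any base, was found in Slc7a11 at 66 and 47 bases upstream. ACGTG was present in 16.6% of all 32851 windows of 250 bases and in 22.0% of the 191 windows of members, and TGATGNAA in 3.45% and 3.66%. Windows were available for 145 of the 193 members. The Slc16a3 window lies within the gene's span in the deposited table, which begins further upstream. The span of Slc2a1 there begins inside its window, within the marked match. Slc37a4, described below, has 3 windows, and none of them holds ACGTG. A match describes letters and is not a bound site.

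Members were put into substrate classes by family number, so some carry something other than their class names. The purine base carrier Slc43a3 was counted with the amino acid carriers and the aromatic amino acid carrier Slc16a10 with the monocarboxylate carriers. The sodium-coupled sugar carrier Slc5a9 was counted outside the sugar class. The largest classes were the 36 mitochondrial carriers, with 26.3% of member reads on average over libraries, and the 27 amino acid carriers, with 24.6%. The 24 metal carriers took 10.5%, the 22 nucleotide sugar carriers 10.0%, the 8 monocarboxylate and dicarboxylate carriers 7.84% and the 12 sugar carriers 4.42%. Per kilobase of exon, on the scale of CPM divided by exon length and averaged over the 16 libraries, the adenine nucleotide translocase Slc25a5 was highest at 414, followed by Slc16a1 at 102 and the second translocase Slc25a4 at 92.0. Other high members were the mitochondrial phosphate carrier Slc25a3 at 84.5, the large neutral amino acid carrier Slc7a5 at 71.4, its heavy chain Slc3a2 at 48.5 and the glutamine carrier Slc1a5 at 48.7. On this scale the glucose carriers Slc2a1 and Slc2a3 were at 27.3 and 23.6. Of the 193 members, 182 reached 5 CPM in at least 1 library, 117 in every library and 11 in none.

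The parental lines differed in which carriers they expressed. Among the 169 members with at least 5 CPM in some parental library, 20 were at 0.2 CPM or less in another parental library, which is 11.8%, against 10.1% of all 11689 genes with that level. Slc25a13, the mitochondrial aspartate-glutamate exchanger citrin, was present in 7298, 2883 and 2641, at 23.0 to 37.0 CPM, and had no reads in 2696 and 2869. The zinc carrier Slc30a4, the lysosomal amino acid carrier Slc36a4 and the purine base carrier Slc43a3 had no reads in parental 2869. At 5 CPM or more in a single parental line, and at 0.2 CPM or less in 3 others, were the sodium-potassium-chloride carrier Slc12a2, in 2883, the sodium bicarbonate carrier Slc4a4, in 2696, the peptide carrier Slc15a2, in 2641, and Slc28a2b, in 7298.

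Resistance was compared with the parental state over the whole table with limma on log2(CPM + 1), with a term for the cell line and 1 for each drug. No gene passed an adjusted p of 0.05 for cytarabine, vincristine, etoposide or prednisone (0 of 13261 genes, 0%). Of the 188 members that passed the filter, 0 did. Methotrexate, with a single derivative, had a term in the fit but was not tested as a contrast. The term for all 11 derivatives together likewise called 0 genes and 0 members. At an unadjusted p under 0.05, the members' shares in this fit were as follows. For cytarabine they were 15 of 188 members (7.98%; 9 higher, 6 lower), against 9.42% of all genes (5.38% higher, 4.04% lower). For vincristine they were 23 members (12.2%; 12 higher, 11 lower), against 13.0% of all genes (5.19% and 7.84%). For etoposide they were 8 members (4.26%; 6 higher, 2 lower), against 8.68% of all genes (3.69% and 4.99%). For prednisone they were 11 members (5.85%; 8 higher, 3 lower), against 8.46% of all genes (4.23% each way). For all derivatives together they were 6 members (3.19%; 5 higher, 1 lower), against 8.33% of all genes (3.40% and 4.93%). These counts moved with single libraries. The cytarabine count was 23 without cytarabine or parental 7298 and 9 without cytarabine 2883. The vincristine count was 14 without parental 2641 or either prednisone derivative and 15 without parental 7298. The etoposide count was 20 without etoposide 2696, 16 without parental 2696, 13 without cytarabine 2883 and 5 without the line term. The count for all derivatives was 13 without methotrexate 2883, 12 without parental 2883 and 10 without cytarabine 2869. Without the line term the members' share was above that of all genes for cytarabine (5.85% and 5.51%), vincristine (7.98% and 7.80%) and prednisone (4.79% and 4.24%). The median log2 difference of members was 0.10 for cytarabine (all genes 0.02), 0.03 for vincristine (-0.04), 0.13 for etoposide (-0.02) and 0.03 for prednisone (-0.01). Values named from these fits below are therefore not called; p-values rest on the spread between cultures, 1 per line and drug.

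The zinc importer Slc39a10 and the mitochondrial carrier Slc25a39, which brings glutathione into mitochondria, were the 2 members with the smallest p in the fit of all derivatives that also lay on 1 side of the parental library in 11 of 11 pairs. The nucleotide sugar carrier Slc35a3 was likewise lower in 11 of 11 pairs, by little (-0.16 ± 0.09, SE, limma, adjusted p = 0.661). Slc39a10 was at 47.2, 46.7 and 55.5 CPM in the cytarabine derivatives of 2883, 2869 and 7298, at 52.6, 53.0 and 61.0 CPM in the vincristine derivatives of 2883, 2696 and 2869, at 83.5 and 70.8 CPM in the etoposide derivatives of 2883 and 2696, at 74.6 and 74.4 CPM in the prednisone derivatives of 2883 and 2641 and at 97.3 CPM in the methotrexate derivative. Its parental levels were 102 CPM in 2883, 109 in 2696, 90.2 in 2641, 80.8 in 2869 and 95.0 in 7298. The cytarabine and vincristine derivatives, all at 61.0 CPM or less, did not overlap the parental libraries, all at 80.8 CPM or more. The share of all genes without such overlap, or on 1 side in 11 of 11 pairs, was not counted, so neither trait is set apart from other genes. The log2 difference was -0.93 ± 0.15 (SE) for cytarabine (limma, adjusted p = 0.494) and -0.75 ± 0.15 for vincristine (limma, adjusted p = 0.158). Slc25a39 was at 69.7 to 117 CPM in the derivatives, with a median of 84.0, and at 60.9 to 85.7 CPM, with a median of 69.7, in the parental libraries, and the groups overlapped. Each derivative was 1.14 to 1.69 times its own parental level, with a log2 difference over all derivatives of 0.39 ± 0.10 (SE; limma, adjusted p = 0.499).

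Other members with the same sign in every derivative of a drug were not called either. With cytarabine resistance the zinc carrier Slc39a6 was at 0.75 ± 0.19, the potassium-chloride carrier Slc12a7 at 0.92 ± 0.24 and the nucleotide sugar carrier Slc35d1 at 0.91 ± 0.25 on the log2 scale (SE; limma, adjusted p = 0.494 for each). The organic cation carrier Slc22a3 had the widest difference there, -3.05 ± 0.92 (limma, adjusted p = 0.496). With vincristine resistance Slc39a11 was at 1.01 ± 0.20 and the monocarboxylate carrier Slc16a5 at 0.95 ± 0.20, and the choline carrier Slc44a1 at -0.94 ± 0.22 (limma, adjusted p of 0.158, 0.171 and 0.221). With etoposide resistance the mitochondrial citrate carrier Slc25a1 was at 0.84 ± 0.28 and the cationic amino acid carrier Slc7a1 at 0.67 ± 0.24 (limma, adjusted p = 0.557 for both). The wider etoposide differences were downward, in members lost from the 2696 derivative: Slc43a3 at -2.41 ± 0.94, Slc30a4 at -2.03 ± 0.97 and Slc35f5 at -1.68 ± 0.59 (SE; limma, adjusted p of 0.562, 0.585 and 0.557). With prednisone resistance the iron importer Slc11a2 was at 0.94 ± 0.21 and the aromatic amino acid carrier Slc16a10 at 0.80 ± 0.25, and Slc16a5 at -1.03 ± 0.24 (limma, adjusted p of 0.499, 0.508 and 0.499). Slc16a5 thus lay above the parental level with vincristine and below it with prednisone resistance. Over all derivatives the glutamine carrier Slc38a1 was above its parental library in 10 of 11 pairs, with a log2 difference of 0.44 ± 0.14 (SE; limma, adjusted p = 0.542).

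Set pair by pair, with 1 library a side and no test, many members differed from the parental library by at least 2-fold, but to different extents in different cultures. Among members with at least 5 CPM in either library, the share at least 2-fold higher was 18.1% in the etoposide derivative of 2883 (29 of 160), against 11.6% of all genes, and 13.8% in the cytarabine derivative of that line (22 of 160), against 10.1%. It was 12.9% in the vincristine derivative of 2869 (19 of 147), against 7.12%. The shares at least 2-fold lower in these 3 pairs were 3.75%, 4.38% and 2.72% of members, against 8.10%, 5.72% and 4.85% of all genes. The share at least 2-fold lower was 11.8% in the vincristine derivative of 2696 (18 of 152), against 8.93%, and 8.78% in the cytarabine derivative of 7298 (13 of 148), against 4.23%. In these 2 pairs 3.29% and 1.35% of members were at least 2-fold higher, against 4.12% and 1.69% of all genes. In the other pairs the members' shares were 7.69% higher and 1.40% lower in cytarabine 2869 (6.96% and 3.32% of all genes), 6.88% and 6.25% in vincristine 2883 (7.70% and 6.96%), 2.58% and 5.16% in etoposide 2696 (3.13% and 3.99%). They were 5.30% and 4.64% in prednisone 2641 (2.79% and 5.97%), 5.77% and 5.13% in prednisone 2883 (6.93% and 4.15%) and 7.19% each way in methotrexate 2883 (5.19% and 5.69%). Over the 11 pairs, 100 of the 193 members passed 2-fold at least once, 43 only upward, 30 only downward and 27 in both directions. The 100 were 54.9% of the 182 members at the level in some pair, against 47.9% of all genes at the level. A total of 28 members (15.4%) passed it in 3 or more pairs, against 16.1% of all genes.

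**Figure D1:**
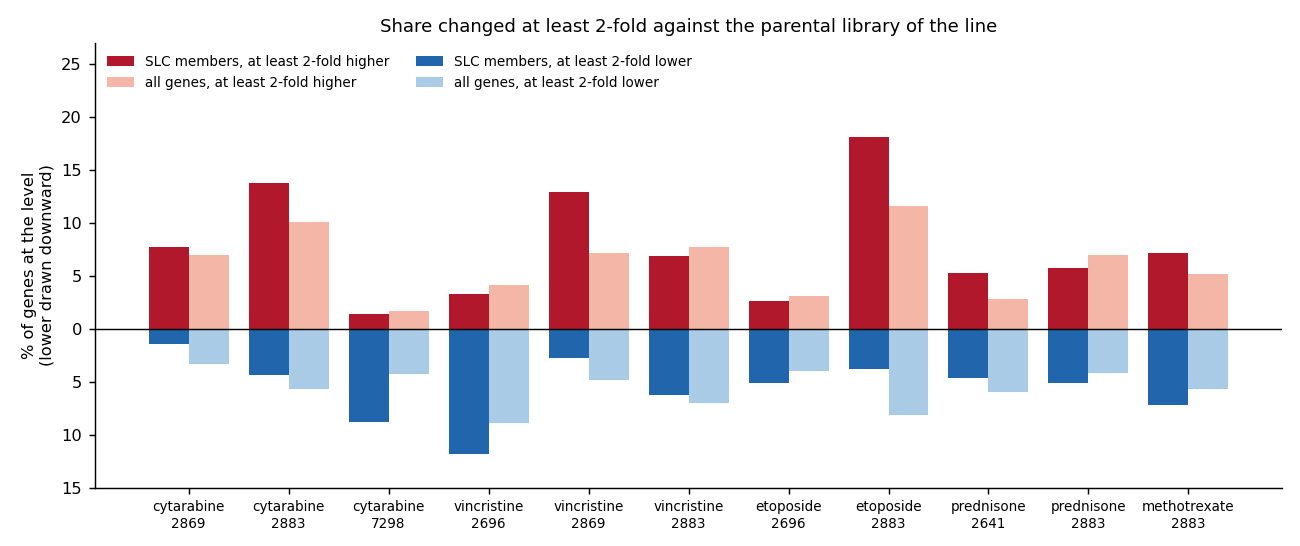
For each derivative, bars give the percent of genes with at least 5 CPM in either library that were at least 2-fold higher (upward) or lower (drawn downward) than in the parental library of the line, dark for SLC members and pale for all genes. The tallest upward bar is the 18.1% of members in etoposide 2883, and the longest downward bar the 11.8% of members in vincristine 2696.

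The sugar carriers differed widely between cultures. In line 2883, 9 of the 12 were at least 2-fold higher in the etoposide derivative, with a median log2 ratio of 1.24 (all genes -0.01), 4 of 11 at the level in the cytarabine derivative (median 0.88, all genes 0.04) and 4 of 10 in the methotrexate derivative (median 0.81, all genes -0.10). The vincristine derivative of 2883 had 1 of 11 higher and 1 lower (median 0.10, all genes 0.00). The sugar carrier Slc5a9, outside this class, was below its parent in every derivative of 2883, with a log2 ratio of -2.46 with etoposide resistance. In the vincristine derivative of 2869, 2 of 10 were higher and 0 lower (median 0.42, all genes -0.04). The class lay below the parental level in 3 other lines: 6 of 11 were at least 2-fold lower in the vincristine derivative of 2696 (median -1.02, all genes -0.01), 3 of 8 in the cytarabine derivative of 7298 (median -0.89, all genes -0.01) and 2 of 10 in the prednisone derivative of 2641 (median -0.52, all genes -0.03). The remaining medians were 0.46 in prednisone 2883, -0.29 in etoposide 2696 and -0.42 in cytarabine 2869. Cytarabine, vincristine, etoposide and prednisone each had derivatives with a class median on either side of 0.

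Slc2a1, the basal glucose carrier (chromosome 4, 119108711 to 119137984, mm10), was at 75.1 CPM with cytarabine, 23.2 with vincristine, 209 with etoposide, 101 with prednisone and 122 with methotrexate resistance in line 2883, against 59.8 CPM in parental 2883. It was at 24.7 and 122 CPM in the vincristine and etoposide derivatives of 2696, against 156 CPM in parental 2696. Values were 30.8 and 69.3 CPM in the cytarabine and vincristine derivatives of 2869, against 43.0 CPM in parental 2869, 82.4 CPM in the prednisone derivative of 2641, against 169 CPM, and 69.0 CPM in the cytarabine derivative of 7298, against 177 CPM. Etoposide 2883 was thus the highest library and the vincristine derivatives of 2883 and 2696 the lowest. The ratio was 3.50 (95% interval 3.22 to 3.80) in etoposide 2883 and 0.159 (0.142 to 0.176) in vincristine 2696; here and below such intervals are exact binomial (Clopper-Pearson) and cover counting error only. Over the 3 vincristine derivatives the log2 difference was -1.29 ± 0.58 (SE; limma, adjusted p = 0.389), and the spread between cultures was wide.

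Slc2a3, the high-affinity glucose carrier (chromosome 6, overlapping the predicted gene Gm4482), spanned a wider range. In line 2883 it was at 41.5 CPM with cytarabine, 12.4 with vincristine, 67.7 with etoposide, 67.6 with prednisone and 149 with methotrexate resistance, against 14.8 CPM in parental 2883. In 2696 it was at 232 CPM with vincristine and 754 with etoposide resistance, against 943 CPM in the parental library. The prednisone derivative of 2641 had 25.9 CPM, against 102 CPM in its parent, the cytarabine derivative of 7298 had 61.4 CPM, against 192 CPM, and the derivatives of 2869 had 25.6 CPM with cytarabine and 25.9 with vincristine resistance, against 20.8 CPM. Of the 5 derivatives of 2883, 4 were thus above a low parental level, by 2.80 to 10.0 times, and the derivatives of the 3 lines with a high parental level, 2696, 2641 and 7298, were below it. The ratio was 10.0 (8.61 to 11.7) in methotrexate 2883 and 0.246 (0.237 to 0.255) in vincristine 2696.

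Slc16a3, the lactate exporter that pairs with the chaperone Bsg (chromosome 11, overlapping Csnk1d), passed 2-fold in 8 of 11 pairs, more than any other member. It was at 76.9 CPM with cytarabine, 14.9 with vincristine, 224 with etoposide, 64.5 with prednisone and 135 with methotrexate resistance in line 2883, against 41.2 CPM in parental 2883. It had 32.1 and 89.0 CPM in the vincristine and etoposide derivatives of 2696, against 204 CPM, and 46.2 and 171 CPM in the cytarabine and vincristine derivatives of 2869, against 67.6 CPM. Lines 2641 and 7298 had little of it, with 1.38 CPM in prednisone 2641, against 6.13 CPM, and 0.685 CPM in cytarabine 7298, against 5.89 CPM. Ratios were 5.43 (4.94 to 5.98) in etoposide 2883, 2.54 (2.35 to 2.73) in vincristine 2869, 0.157 (0.143 to 0.172) in vincristine 2696 and 0.116 (0.0572 to 0.214) in cytarabine 7298. The direction in each pair was that of Slc2a1.

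Slc37a4, which moves glucose 6-phosphate into the endoplasmic reticulum, lay on the same side as Slc2a1 in all 11 pairs, with 33.0 CPM in etoposide 2883, against 16.9 CPM in parental 2883, and 14.1 CPM in vincristine 2696, against 40.5 CPM in parental 2696. The uric acid and sugar carrier Slc2a9 was at 26.0 CPM in etoposide 2883, against 4.54 CPM, and the glucose 6-phosphate antiporter family member Slc37a2 at 2.30 CPM in vincristine 2696, against 36.0 CPM. By contrast Slc16a1, which carries lactate and pyruvate both ways, was at 295 to 544 CPM in the derivatives and 331 to 769.7 CPM in the parental libraries, and its ratios were 0.632 to 1.20, none past 2-fold. Among partners of these carriers, Bsg was at 187 to 415 CPM in resistant and 260.3 to 478 CPM in parental libraries. Hif1a, whose protein binds the hypoxia response element but is controlled mainly after translation, was at 166 to 283 CPM and 184 to 279 CPM.

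**Figure D2:**
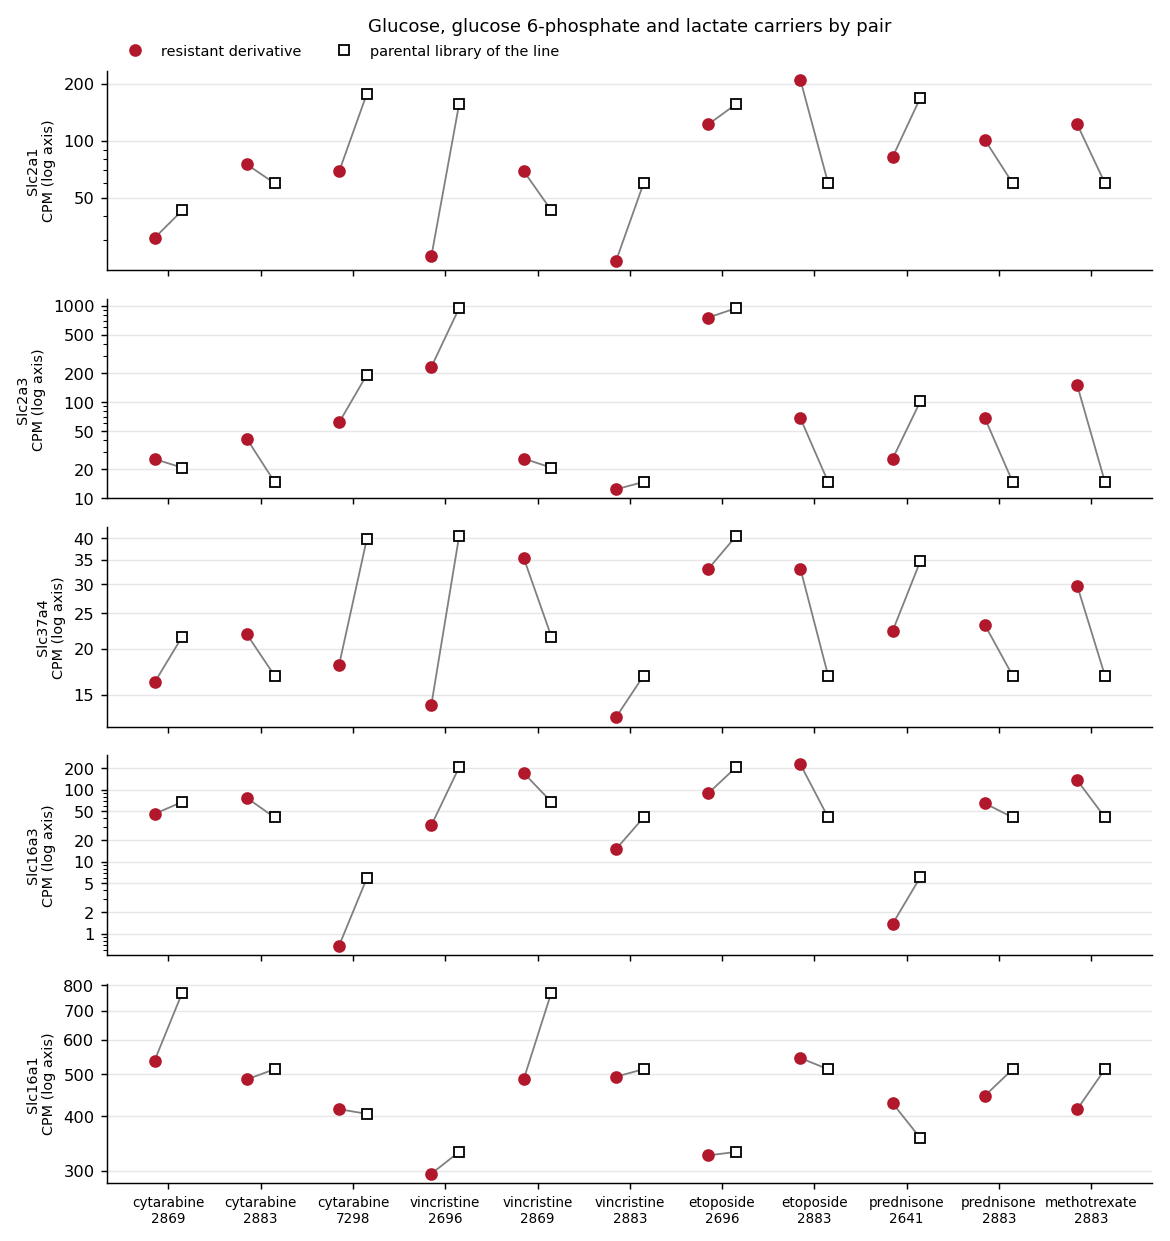
CPM on a log axis for 5 carriers (rows) in each derivative (filled circles) and the parental library of its line (open squares), joined by a line, with 1 library per point. Slc2a1, Slc2a3, Slc37a4 and Slc16a3 slope one way in etoposide 2883 and the other way in vincristine 2696, while Slc16a1 spans 295 to 769.7 CPM in all 16 libraries.

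Among the amino acid carriers, Slc7a11 passed 2-fold only downward. It exchanges glutamate for cystine, which cells use to make glutathione. In line 2883 it was at 36.5 CPM with cytarabine, 43.4 with vincristine, 57.3 with etoposide, 125 with prednisone and 151 with methotrexate resistance, against 276 CPM in parental 2883. In 2696 it was at 18.8 CPM with vincristine and 39.7 with etoposide resistance, against 80.3 CPM. All 7 of these derivatives lay below their parent, and 6 of them by 2-fold or more, the lowest ratio being 0.133 (0.122 to 0.144) in cytarabine 2883. In the other lines it was close to the parent: 62.8 and 73.3 CPM with cytarabine and vincristine resistance in 2869, against 69.4 CPM, 172 CPM in prednisone 2641, against 245 CPM, and 126 CPM in cytarabine 7298, against 93.0 CPM. The log2 difference over the vincristine derivatives was -1.34 ± 0.54 (SE; limma, adjusted p = 0.346) and over all derivatives -0.85 ± 0.40 (limma, adjusted p = 0.599). Atf4, whose protein binds the amino acid response element, was at 245 to 534 CPM in resistant and 239.6 to 337 CPM in parental libraries.

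The carriers that bring in most amino acids differed far less. Slc7a5 was at 109 to 441 CPM in derivatives and 190.0 to 270.3 CPM in parental libraries, and Slc3a2, the heavy chain it shares with Slc7a11, at 134 to 227 CPM and 145 to 188 CPM; neither passed 2-fold in any pair. Slc1a5 ranged over 74.7 to 299 CPM in derivatives and 75.8 to 228 CPM in parental libraries, and line 7298 was the lowest in both states. Slc38a1 was at 1016 and 1037 CPM in the vincristine and etoposide derivatives of 2696, against 521 CPM in their parent, the highest values of the class. The glycine carrier Slc6a9, which overlaps B4galt2, was above 2-fold in 5 pairs and below it in none, with 58.4 CPM in etoposide 2883, against 11.9 CPM, a ratio of 4.92 (4.12 to 5.91).

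Some amino acid carriers at low parental levels had wide ratios in both directions. The arginine and lysine carrier Slc7a3 was at 65.6 CPM with cytarabine, 31.0 with vincristine and 43.3 with etoposide resistance in line 2883, against 6.60 CPM, but at 1.98 CPM with prednisone and 1.22 with methotrexate resistance. It was also at 15.1 CPM in vincristine 2869, against 0.600 CPM in its parent. Slc6a13, a GABA and taurine carrier, was at 23.3 CPM in vincristine 2869, against 0.304 CPM, a ratio of 78.7 (30.5 to 290.1), and at 3.03 CPM in cytarabine 2883, against 41.2 CPM. Vincristine 2869 thus held 2 amino acid carriers that its parent had at under 1 CPM. The adenine carrier Slc43a3 was at 6.81 CPM in cytarabine 2883, against 0.420 CPM, and at 34.9 CPM in vincristine 2696, against 12.5 CPM.

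Metal carriers had few ratios past 2-fold, at most 3 of 18 to 20 members at the level in any pair and direction. In prednisone 2641, 2 of the 6 Slc30 zinc exporters were at least 2-fold higher: Slc30a4 at 49.1 CPM, against 4.22 CPM, a ratio of 11.6 (8.89 to 15.5), and Slc30a1 at 24.0 CPM, against 7.16 CPM, a ratio of 3.37 (2.69 to 4.24). Slc11a2 was at 193 and 87.4 CPM in the prednisone derivatives of 2883 and 2641, against 94.1 and 39.0 CPM in their parents. In line 2869, where the zinc and iron importers Slc39a14 and Slc39a8 were low in the parent at 2.75 and 2.45 CPM, Slc39a14 had no reads in the cytarabine derivative and 7.10 CPM in the vincristine one. Slc39a8 there had 13.3 CPM in the cytarabine derivative and no reads in the vincristine one, the reverse of Slc39a14. The copper importer Slc31a1, which overlaps Cdc26, was at 39.5 CPM in cytarabine 7298, against 93.9 CPM, and at 82.0 to 128 CPM in the other 10 derivatives. The iron exporter Slc40a1 was at 10.5 CPM in vincristine 2883, against 0.420 CPM, and at 2.32 CPM or less in the other 15 libraries.

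Carriers of nucleosides and vitamins are of interest because cytarabine resembles a nucleoside and methotrexate a folate. The purine nucleoside carrier Slc28a2 was at 44.0 CPM in cytarabine 2883, against 24.4 CPM, at 24.4 CPM in cytarabine 2869, against 5.78 CPM, and at 11.1 CPM in cytarabine 7298, against 28.2 CPM. With cytarabine the 2 Mcm2cre/cre lines thus lay above their parents and the SCL/LMO1 line below. This was not particular to cytarabine or to genotype. Over all 11 pairs Slc28a2 was above the parent in 5 and below it in 6. It was also past 2-fold upward in vincristine 2869 and downward in prednisone 2641, both Mcm2cre/cre lines. Reads may be split between Slc28a2 and its near-identical neighbour Slc28a2b. Slc29a3, the lysosomal nucleoside carrier, was at 36.0 to 99.6 CPM in derivatives and 38.2 to 68.5 CPM in parental libraries, and Slc29a2 at 0.289 to 4.95 CPM and 1.04 to 1.74 CPM. In methotrexate 2883 the mitochondrial folate carrier Slc25a32 was at 42.1 CPM, against 57.0 CPM, and the thiamine carrier Slc19a2 at 8.89 CPM, against 12.3 CPM. A lower level was not particular to methotrexate: Slc25a32 was below the parent in 8 of 11 pairs and Slc19a2 in 9. Both passed 2-fold in 0 pairs. Slc46a3, a lysosomal carrier, was at 13.3 CPM in etoposide 2883 and 10.6 CPM in vincristine 2883, against 1.24 CPM in their parent.

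The 36 mitochondrial carriers had few ratios past 2-fold. Over the 11 pairs at most 3 were at least 2-fold higher (of 34 at the level in etoposide 2883) and at most 2 at least 2-fold lower (of 34 in methotrexate 2883). Slc25a5 was at 419 to 969.8 CPM in derivatives and 591 to 907 CPM in parental libraries, Slc25a4 at 157 to 296 CPM and 201 to 257 CPM and Slc25a3 at 307 to 769.9 CPM and 339 to 551 CPM. The citrate carrier Slc25a1 was at 70.2 and 90.7 CPM in the etoposide derivatives of 2883 and 2696, against 34.4 and 54.3 CPM in their parents. Slc25a45 varied widely, at 15.8 CPM in methotrexate 2883, against 2.40 CPM, 32.3 CPM in etoposide 2696, against 4.35 CPM, and 57.5 CPM in cytarabine 2869, against 12.1 CPM. The other 4 derivatives of 2883 had 0.762 CPM or less, below the parental 2.40 CPM.

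Among the remaining classes, the organic cation carrier Slc22a3, which overlaps C030013G03Rik, differed widely. It was at 0.355 CPM with cytarabine, 47.4 with vincristine, 61.3 with etoposide, 1.40 with prednisone and 10.3 with methotrexate resistance in line 2883, against 15.6 CPM in parental 2883. In cytarabine 7298 it was at 1.54 CPM, against 32.0 CPM, a ratio of 0.0477 (0.0310 to 0.0704), and in both derivatives of 2869 it had no reads, against 3.64 CPM. The 3 cytarabine derivatives were thus below their parents, and the vincristine and etoposide derivatives of 2883 above. The sodium bicarbonate carrier Slc4a4 was at 15.5 CPM in cytarabine 7298, against 0.563 CPM, and at 0.549 CPM in vincristine 2696, against 12.5 CPM. Its relative Slc4a8 was at 21.1 CPM in cytarabine 2883 and 10.3 CPM in vincristine 2883, against 0.255 CPM. The endosomal sodium-proton exchanger Slc9a9 was at 95.0 CPM in cytarabine 2883 and 85.6 CPM in etoposide 2883, against 20.7 CPM, and at 45.7 CPM in cytarabine 7298, against 111 CPM. The inositol carrier Slc5a3, which lies within the span of Mrps6, and the fatty acid carrier Slc27a1 were at least 2-fold higher in 4 and 5 pairs. Slc5a9, a sodium-coupled sugar carrier, was at 13.2 to 40.0 CPM in the 5 derivatives of 2883, against 79.6 CPM in their parent.

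**Figure D3:**
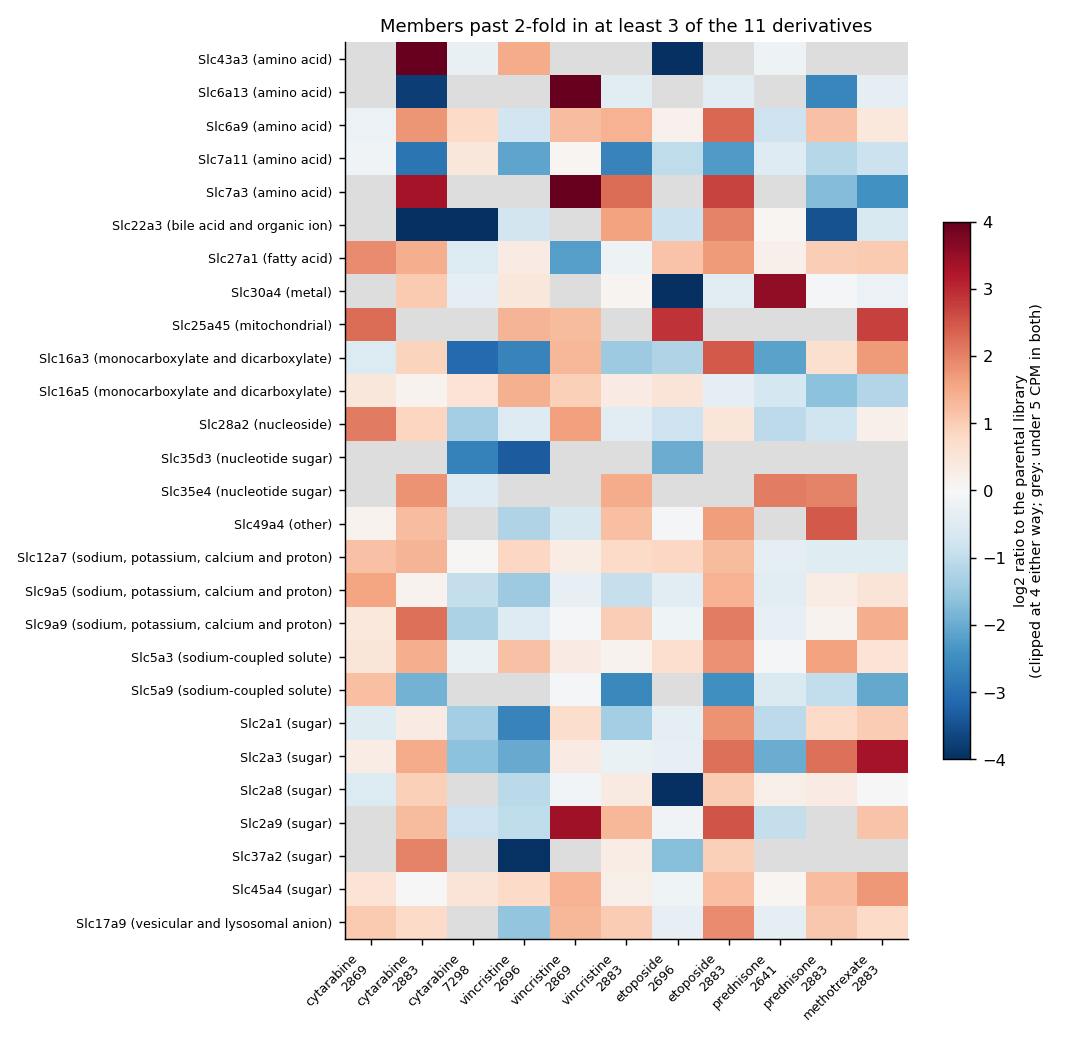
Colour gives the log2 ratio of CPM in each derivative (columns) to the parental library of its line for 27 of the 28 members (rows, with their class) past 2-fold in at least 3 derivatives; red is higher in the derivative, blue lower, grey under 5 CPM in both libraries. Slc7a11 is past 2-fold only downward and Slc6a9 and Slc45a4 only upward, while Slc2a1, Slc2a3 and Slc16a3 have both colours.

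Some derivatives had lost a carrier that their parent made, counted as at least 5 CPM in the parental library and at most 0.2 CPM in the derivative. There were 9 such events in 6 members and 7 pairs, and 0 in the reverse direction; 5 of these members are described here. Slc25a13, citrin (chromosome 6), had 0 reads in methotrexate 2883, against 449 reads in its parent, at least 173-fold lower against the limit that 3 reads set, and was at 8.67 CPM in cytarabine 2883, against 37.0 CPM.

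Etoposide 2696 lost 3 members. Slc30a4 (chromosome 2) had 0 reads, against 239 reads in parental 2696, at least 104-fold lower, Slc43a3 (chromosome 2) 0 reads, against 164, at least 71.5-fold lower, and the Slc35 family member Slc35f5 (chromosome 1) 3 reads, against 84. The vincristine derivative of the same line kept Slc30a4 at 24.8 CPM and Slc43a3 at 34.9 CPM. The sugar carrier Slc45a3 (chromosome 1) had 0 reads in cytarabine 2869, against 565 reads in its parent, at least 236-fold lower, and was at 24.4 CPM or more in the other 15 libraries. The lost members were 3 of the 151 that could be lost in etoposide 2696, where 0.513% of all genes were. In each of 6 other pairs 1 of 140 to 149 members was lost, where the share of all genes lost was 0.376% in cytarabine 2869, 0.445% in cytarabine 2883, 0.629% in vincristine 2883, 0.783% in etoposide 2883, 0.416% in prednisone 2883 and 0.774% in methotrexate 2883. In the 4 pairs without a lost member it was 0.159% in cytarabine 7298, 0.665% in vincristine 2696, 0.376% in vincristine 2869 and 0.357% in prednisone 2641. Of all genes at 0.2 CPM or less in the parental library, 9.44%, 6.81%, 5.73%, 3.72% and 2.17% reached 5 CPM in the cytarabine, vincristine, etoposide, prednisone and methotrexate derivatives of 2883, where 0 of 8 members did. The share was 2.18% and 3.34% in cytarabine and vincristine 2869 (0 of 25 members), 0.662% and 0.772% in vincristine and etoposide 2696 (0 of 20), 1.13% in prednisone 2641 (0 of 13) and 0.140% in cytarabine 7298 (0 of 26). With so few members at that level, the counts of 0 are not set apart from these shares. Of the 6 lost members, 5 (all but Slc45a3) were among the 20 that some parental lines had at 5 CPM or more and others at 0.2 CPM or less. The matching share over all lost genes was not counted, so this overlap is not set apart from that of other lost genes.

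**Figure D4:**
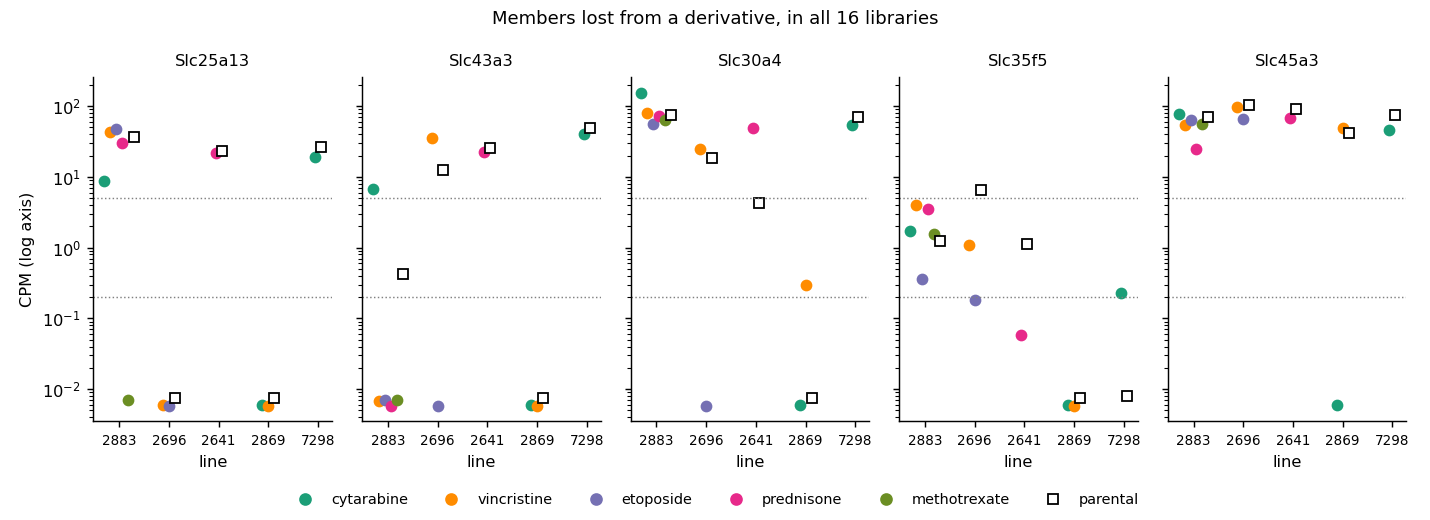
CPM on a log axis of 5 of the 6 members lost from at least 1 derivative, by line, with derivatives coloured by drug and parental libraries as open squares, 1 library per point. Dotted lines mark 5 and 0.2 CPM, and libraries with 0 reads are drawn near the bottom, at about the value of 0.1 read, which the deposited values of 0 carry.

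Several differences were shared by neighbouring genes on a chromosome. The stretches below were chosen after the values were seen. In vincristine 2869 the 168 genes on the first 40 Mb of chromosome 5 had a median log2 ratio of 2.16 to the parent, against -0.05 for the rest of the genes, and all 5 members there were higher by at least 2-fold: the anion exchanger Slc4a2 (2.11), Slc35f6 (2.60), the biotin and pantothenate carrier Slc5a6 (2.53), Slc4a1ap (1.33) and Slc2a9 (3.39). Of the 168 genes, 144 were higher by at least 2-fold. In vincristine 2883 the 570 genes on chromosome 8 had a median of -0.72, against 0.02 elsewhere. All 13 members there were below the parent, and so were 512 of the 570 genes. The members included the phosphate carrier Slc20a2 (-1.83), the lysosomal amino acid carrier Slc38a7 (-1.42), the cationic amino acid exchanger Slc7a6 (-1.08) and Slc25a4 (-0.57).

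On chromosome 11 the 905 genes in vincristine 2696 had a median of 0.56 and the 875 genes in vincristine 2869 a median of 0.40, but the 909 genes in vincristine 2883 a median of 0.04. Of the members there, 12 of 16, 14 of 16 and 12 of 17 lay above the parent, against 765 of 905, 712 of 875 and 495 of 909 genes. Of the 5 members with the smallest p upward and 1 sign in the vincristine fit, Slc39a11, Slc16a5, Slc25a39 and Slc25a11 lie on chromosome 11. The other, the carnitine-acylcarnitine carrier Slc25a20, lies on chromosome 9. Genes of chromosome 9 had medians of 0.36 in vincristine 2869, -0.12 in vincristine 2696 and 0.02 in vincristine 2883. Slc16a3, on chromosome 11 too, was at -2.67 in vincristine 2696. In methotrexate 2883 the 34 genes of a stretch in the distal part of chromosome 11 had a median of -1.12, and 33 of them were lower. All 4 members there were lower, among them Slc39a11 (-1.08), Slc9a3r1 (-1.05) and Slc16a5 (-1.18). In etoposide 2883 the 72 genes at 28 to 36 Mb of chromosome 5 had a median of -0.96, and 62 of them were lower. Slc35f6 (-0.67), Slc5a6 (-1.13) and Slc4a1ap (-1.08) were lower there, the reverse of vincristine 2869. DNA copy number was not measured, and its part in these shifts was not tested. Slc2a1, Slc2a3 and Slc7a11 lie on chromosomes 4, 6 and 3, whose gene medians were within 0.3 of 0 in every pair. Slc16a3 lies on chromosome 11, with the medians of 0.56 and 0.40 given above for vincristine 2696 and 2869. A median over a whole chromosome does not show a shorter stretch, so the part of copy number in these carriers was not tested either.

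**Figure D5:**
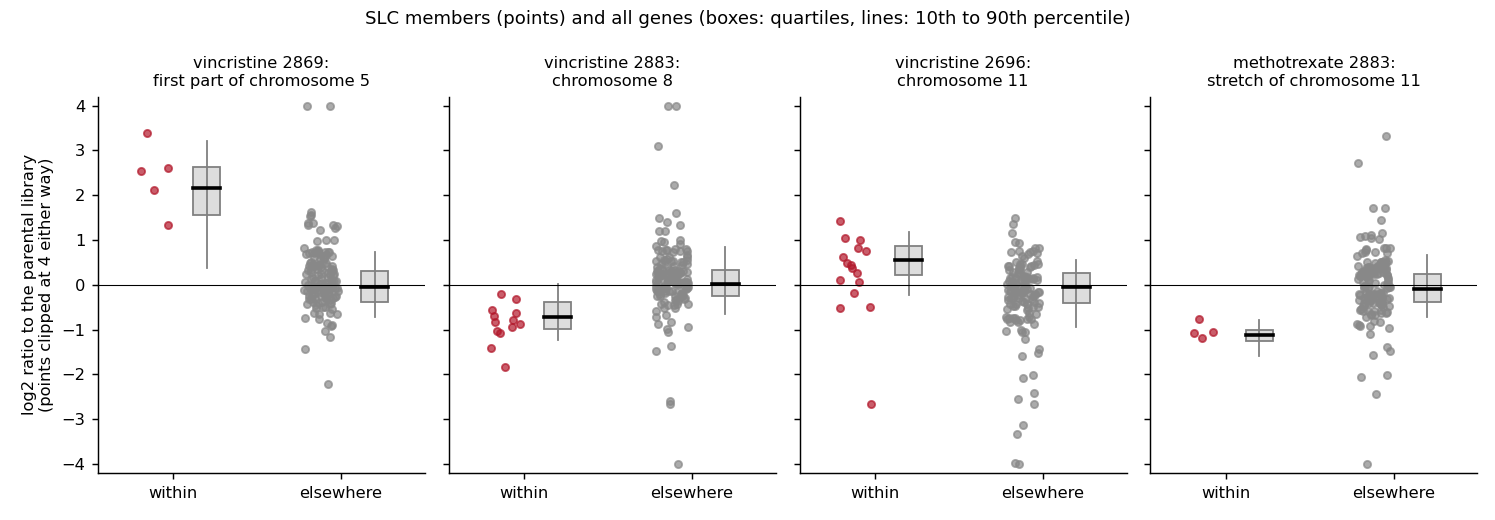
Log2 ratio to the parental library for SLC members (points, clipped at 4) and for all genes (boxes from the 25th to the 75th percentile with the median, lines from the 10th to the 90th percentile), within a shifted stretch and elsewhere in the genome, in 4 derivatives. All members within the stretch lie above 0 in vincristine 2869 (5 members) and below 0 in vincristine 2883 (13) and methotrexate 2883 (4), while vincristine 2696 has 12 of 16 above 0. In the same order, the genes on that side were 160 of 168, 512 of 570, 33 of 34 and 765 of 905.

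The list of SLC-type carriers with other symbols, such as the mitochondrial pyruvate carriers Mpc1 and Mpc2, had 33 of 39 genes in the table. Limma called 0 of them in each contrast, and 0 to 3 had an unadjusted p under 0.05 in a contrast. The uncoupling carrier Ucp2 was 1 of these with cytarabine (0.40 ± 0.13, SE; adjusted p = 0.496) and with vincristine (-0.35 ± 0.13; adjusted p = 0.330). The list of partners and regulators of carriers had 27 of 28 genes in the table and 0 called. The sodium pump that keeps the gradient for sodium-coupled carriers gave its smallest p-values: the beta subunit gene Atp1b1 was at 2.99 ± 0.42 with vincristine (SE; limma, adjusted p = 0.153) and 2.63 ± 0.50 with etoposide (adjusted p = 0.327). Its levels were at most 15.2 CPM in derivatives and 1.08 CPM in parental libraries.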

How the data were processed

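Polyadenylated RNA of 16 cultures was sequenced with a stranded kit, 1 library each. The authors deposited 1 table of FPKM for 13474 genes; per the submitters' processing notes the reads were handled with cutadapt, STAR and Partek on mm10, and neither the counting method nor its strand setting is stated there. In the file the length used for FPKM is the whole gene span, introns included, so FPKM × length gave CPM. The smallest deposited values fit an offset of 0.1 read, which gave each depth; 70.5% to 75.7% of values between 0.5 and 200 reads came within 0.05 of a whole read, too few for a count test.

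Limma 3.58.1 (R 4.3.3; lmFit, eBayes with trend) was fitted to log2(CPM + 1) of the 13261 genes with at least 1 CPM in at least 2 libraries, with terms for line and drug (6 residual degrees of freedom) or line and resistance (10), Benjamini-Hochberg threshold 0.05. All limma p-values are moderated over all genes. The labels do not say that cultures are independent selections, so p-values measure only the spread between these libraries. Line terms pair each derivative with the parental culture the labels name; its own parent was the nearest parental library in 11 of 11 derivatives (r = 0.91 to 0.98 across genes). Pairs have no test; ratios carry exact Clopper-Pearson 95% intervals, for counting error only, and folds against 0 reads use a floor of 3 reads per library. Exon lengths were from GENCODE vM21 (190 members). Of the members, 37 overlap another gene in the table, and reads of near-identical copies (Slc28a2 and Slc28a2b) or of pseudogenes (Slc25a5, Slc39a1) may be split.

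Named members are those with the smallest p and 1 sign per contrast, the widest ratios per pair, lost members, a list of 40 fixed carriers (37 in the table) and the highest or most variable per class; others named, past 2-fold in several pairs or on a shifted chromosome, were chosen after their values were seen. Some genes are not reported here. Members, lists and tests were chosen with earlier results of these data known. Alternatives were another scaling, pseudocount, filter and unit (FPKM), no line term and leaving out each library. The script was tested on simulated data. Python 3.11.15 with SciPy 1.17.1 was used.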

Additional observations from a re-analysis of the deposited data

Results flagged for a closer look

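Among 72 members checked in the 5 parental libraries, 8 had 1 library far from the other 4. Chance gives about 1 in 20, but the 72 include members picked for their wide span over these libraries. Over members with at least 5 CPM in some parental library the share was 8.88% (15 of 169), against 9.07% of all genes. Slc12a2 was highest in 2883, at 24.2 CPM (others 0.00741 to 0.986), Slc4a4 highest in 2696, at 12.5 CPM (0.00742 to 0.563), and Slc28a2b highest in 7298, at 5.24 CPM (0.00752 to 0.277). The large neutral amino acid carrier Slc43a1 was highest in 7298, at 66.8 CPM (15.3 to 20.6), and Slc3a2 highest in 2641, at 188 CPM (145 to 153). Line 2869 was lowest for Slc38a1, at 391 CPM (496 to 521), and for Slc39a14, at 2.75 CPM (30.4 to 56.8). Slc7a6os, which is not a carrier, was lowest in 2696, at 22.7 CPM (47.4 to 54.6).

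In 13 cases derivatives of 1 drug were past 2-fold in opposite directions, and the difference between lines was not tested. The 11 members involved are 6.04% of the 182 at the level, against 5.33% of all genes. With cytarabine the ratio of Slc28a2 was 4.23 in 2869 and 0.394 in 7298, of Slc28a2b 24.0 in 2883 and 0.389 in 7298, of Slc5a9 2.34 in 2869 and 0.272 in 2883, of Slc2a3 2.80 in 2883 and 0.320 in 7298, and of Slc9a9 4.60 in 2883 and 0.411 in 7298. With vincristine the ratio in 2869 and then in 2696 was 2.48 and 0.333 for the vesicular nucleotide carrier Slc17a9, 10.5 and 0.492 for Slc2a9, 2.96 and 0.186 for the magnesium carrier Slc41a3 and 2.54 and 0.157 for Slc16a3. The ratio of Slc49a4 was 2.32 in vincristine 2883 and 0.433 in vincristine 2696. With etoposide the ratio in 2883 and then in 2696 was 2.05 and 0.0533 for the glucose carrier Slc2a8 and 5.43 and 0.436 for Slc16a3. With prednisone the ratio of Slc2a3 was 4.56 in 2883 and 0.253 in 2641.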

How the results depend on the processing

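No member passed the adjusted threshold for cytarabine, vincristine, etoposide, prednisone or all derivatives under any of 21 settings: the count was 0 with median-of-ratios scaling, a pseudocount of 0.1, no filter and log2(FPKM + 1), and leaving out 1 library at a time gave 0 to 0. With no replicate block, that is without the line term that pairs a derivative with its parent, the count was likewise 0. Over all genes, for which 0 were called, 4 were called for vincristine without the line term and 2 for prednisone with FPKM. Leaving out 1 library gave 0 to 1 called genes for cytarabine and 0 to 9 for vincristine (9 without parental 2696). It gave 0 to 3 for etoposide while both etoposide derivatives were kept. For prednisone it gave 0 to 2 while both prednisone derivatives and parental 2641 were kept. The remaining fits rest on a single derivative of the drug, assumed to vary like the other groups, and their counts are not given. Of 1039 alternative values for the 50 named member fits, 1038 kept their direction; the lowest adjusted p among them was 0.0912. The sugar phosphate carrier Slc37a1 turned from -0.78 to 0.02 with prednisone without the line term; the cause was not tested. Of the 33 alternative counts of members past 2-fold, 32 stayed within 1.5 times. The exception was prednisone 2641, where a minimum of 10 CPM left 9 of the 15 members, since fewer genes enter. Relative to the median of the gene's own chromosome, an alternative added after seeing the data, members at least 2-fold higher numbered 14 in vincristine 2869, against 19, and 3 in vincristine 2696, against 5. Members at least 2-fold lower numbered 8 in vincristine 2883, against 10, and 8 in methotrexate 2883, against 11. With 1 library per culture and 2 or 3 derivatives per drug, and 1 for methotrexate, the number of cultures limits the comparisons; depth also separates resistant from parental libraries.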
